A study of Mus musculus with 6 samples.

Results

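Genes that prepare peptides and show them to T cells were followed in the livers of refed male F1 mice whose fathers had or had not drunk inorganic arsenic (iAs). A set of 34 genes was chosen by symbol, with 13 class I heavy chains, 6 genes of class I loading, 5 immunoproteasome genes, 8 class II genes and 2 transcriptional regulators. Of these, 33 were found among 16743 gene identifiers, and Ifi30 was not analysed here. All 7 class II genes had a lower mean in iAsF1-M than in conF1-M livers, from 0.579 times the conF1-M mean for H2-Ab1 to 0.930 times for Ctss. Of all genes tested, 69.6% had a log2 fold change below 0. The liver iAsF1-M 2 was below each conF1-M liver in 3 of the 7 genes and above each in 2. On the class I side, H2-D1, H2-Q7, Tap1 and Psmb9 were higher in every iAsF1-M liver than in every conF1-M liver, while H2-Q10 was lower in every one. Of all genes tested, 2.37% were higher and 11.8% lower in this way. The groups overlapped in the other heavy chain, loading and immunoproteasome genes, H2-K1 and B2m among them. No member passed the test across all genes, so these are differences between small groups of livers and not called changes.

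The 6 livers came from C57BL/6 WT males that drank normal water and ate normal chow, and were collected late in the afternoon after 7 h of refeeding. The 3 iAsF1-M mice had fathers given 250 ppb iAs, as sodium arsenite, in drinking water for 6 weeks after weaning, and the 3 conF1-M mice had fathers kept on normal water. Fathers of both groups were bred for 3 days on normal water with unexposed females aged 15 weeks. The age of these F1 mice and the litter of each are not given in the sources used here, so mice were taken as independent and p-values cover only the spread between these livers.

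Class I molecules, a heavy chain paired with B2m, carry peptides cut in the cytosol, and nearly every nucleated cell makes them. The immunoproteasome is a form of the proteasome in which induced subunits take the place of the constitutive catalytic ones, and interferon gamma induces it together with the peptide transporter and the class I chains. Class II molecules carry peptides from the endosomes and are made mainly by dendritic cells, B cells and macrophages, which in the liver include the resident Kupffer cells.

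RNA abundance was given as FPKM, fragments scaled by the length of the transcript and by the library total, a value per length that can be compared between genes. Differences were tested with limma on log2(FPKM + 1) over the 9695 genes whose mean reached 1 FPKM, and log2 fold changes on this scale understate the change of genes near 1 FPKM. Of the genes tested, 6 (0.0619%) passed an adjusted p of 0.05, 138 were higher and 654 lower at an unadjusted p under 0.05, and the median log2 fold change was -0.07. The split was 329 higher and 352 lower after quantile normalization, and 308 and 330 after median-ratio scaling. Leaving out iAsF1-M 3 gave 73 genes that passed, leaving out conF1-M 3 gave 13, and leaving out conF1-M 1 or conF1-M 2 gave 3. Of the 33 members, 28 reached 1 FPKM and were tested, and 0 passed in limma, the only tool run. At an unadjusted p under 0.05, 3 members were higher (H2-Q7, Tap1 and Psmb9), where 1.42% of all genes were, and 3 were lower (H2-Ab1, H2-DMa and H2-DMb1), where 6.75% were. The groups did not overlap in 4 tested members that were higher and 4 that were lower, against 2.37% and 11.8% of all genes tested. The lowest adjusted p of a member was 0.579, that of H2-Ab1 in limma.

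**Figure D1:**
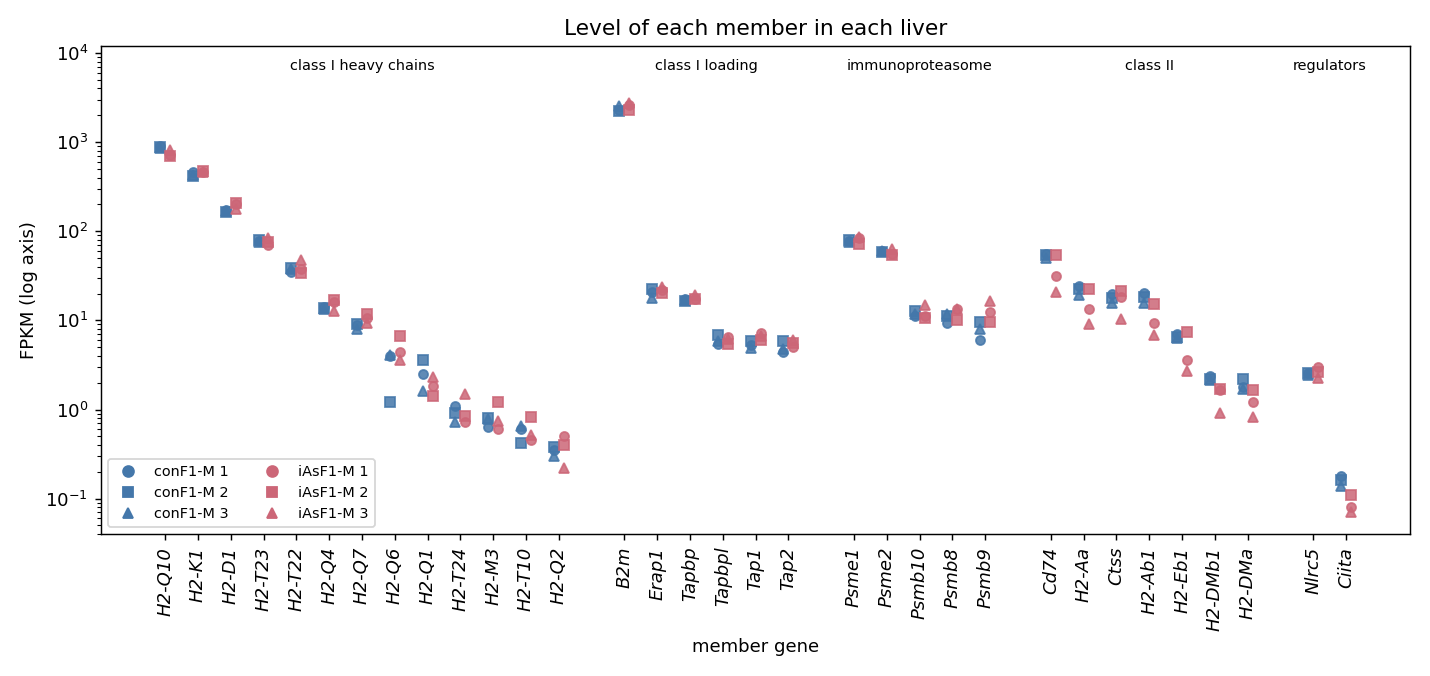
FPKM of the 33 members (log axis) in each of the 6 livers, a symbol for each liver, ordered by mean within each role. B2m lay above every heavy chain in each liver and Ciita at or below 0.18 FPKM, and Cd74 ranged from 20.7 to 54.5 FPKM among the iAsF1-M livers.

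Class I heavy chains are encoded on chromosome 17 in the H2 complex, and their levels in the liver covered a wide range. H2-Q10 (ENSMUSG00000067235, GRCm38 chr17:35470089-35474563, plus strand), a heavy chain that hepatocytes secrete, was the most abundant. Beside it stood the classical chains H2-K1 (ENSMUSG00000061232, chr17:33996017-34000347, minus strand) and H2-D1 (ENSMUSG00000073411, chr17:35262730-35267499, plus strand), which present peptides to CD8 T cells. Their promoters are shown because the groups lay apart in opposite directions for H2-D1 and H2-Q10. The sequences are RefSeq windows of GRCm38.p6 from 250 bases before to 50 bases after the annotated start, with capitals on matches to the CCAAT box (CCAAT) and to a kappa B core (GGGANNNNCC), on either strand, where overlapping kappa B matches run together. The windows are chr17:34000298-34000597, minus strand, for H2-K1, chr17:35262844-35263143, plus strand, for H2-D1, and chr17:35469839-35470138, plus strand, for H2-Q10.
H2-K1: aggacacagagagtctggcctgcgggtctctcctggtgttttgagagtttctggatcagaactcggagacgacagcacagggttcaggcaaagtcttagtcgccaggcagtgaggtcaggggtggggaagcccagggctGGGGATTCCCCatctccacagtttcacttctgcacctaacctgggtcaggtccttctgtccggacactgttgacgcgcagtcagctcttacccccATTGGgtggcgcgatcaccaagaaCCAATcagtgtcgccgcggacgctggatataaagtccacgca
H2-D1: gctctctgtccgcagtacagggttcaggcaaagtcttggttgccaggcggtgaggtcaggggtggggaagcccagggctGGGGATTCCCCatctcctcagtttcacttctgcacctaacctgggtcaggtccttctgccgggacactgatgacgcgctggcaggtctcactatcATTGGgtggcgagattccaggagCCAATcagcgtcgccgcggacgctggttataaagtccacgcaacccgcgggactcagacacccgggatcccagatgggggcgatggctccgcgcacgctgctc
H2-Q10: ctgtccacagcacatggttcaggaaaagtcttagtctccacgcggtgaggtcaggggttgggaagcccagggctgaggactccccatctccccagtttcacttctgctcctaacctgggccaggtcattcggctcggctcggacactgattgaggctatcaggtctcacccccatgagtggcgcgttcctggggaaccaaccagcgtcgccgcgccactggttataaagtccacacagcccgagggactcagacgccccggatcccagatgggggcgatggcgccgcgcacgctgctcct

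H2-K1 and H2-D1 each held a kappa B match and a CCAAT box on either strand, while the H2-Q10 window held none of the motifs searched. Among 24 members with a RefSeq window, 17 held a CCAAT box, 9 a kappa B core, 6 the core of an interferon-stimulated response element (GAAANNGAAA) and 2 a gamma-activated site (TTCNNNGAA). Over all 32851 promoter windows of the same length, 37.4% held a CCAAT box, 20.7% a kappa B core, 3.44% the response element core and 8.30% the gamma-activated site. A member was counted once if any of its windows held a match, while the shares are per window. Looser forms of these motifs were not searched. These are matches of letters and say nothing of binding.

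In conF1-M 1, 2 and 3, H2-Q10 stood at 900.3, 872 and 859 FPKM, against 722, 699.5 and 823 FPKM in iAsF1-M 1, 2 and 3, the order kept for each gene that follows. The groups did not overlap, and iAsF1-M 3 was the closest to the controls. The means were 877 ± 21.2 and 748 ± 65.6 FPKM (SD, n = 3), and the log2 fold change was -0.23 ± 0.11 (SE, limma adjusted p = 0.616). H2-D1 was at 172, 165 and 168 FPKM in conF1-M livers and at 204, 205 and 178 FPKM in iAsF1-M livers. Again the groups did not overlap and iAsF1-M 3 lay nearest to the controls, here in the other direction. The means were 168 ± 3.59 and 196 ± 15.7 FPKM (SD, n = 3), with a log2 fold change of 0.21 ± 0.10 (SE, limma adjusted p = 0.616). H2-K1, at 466, 413 and 424 FPKM against 465, 474 and 464 FPKM, overlapped between groups and had a log2 fold change of 0.11 ± 0.10 (SE, limma adjusted p = 0.744).

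The ratio of H2-Q10 to H2-D1 within a library does not depend on scaling between libraries. It was 5.23, 5.28 and 5.13 in conF1-M livers and 3.54, 3.41 and 4.63 in iAsF1-M livers. As H2-Q10 was lower and H2-D1 higher in each iAsF1-M liver, the groups could not overlap in this ratio. The ratio of H2-Q10 to H2-K1 was likewise lower in each iAsF1-M liver, at 1.55, 1.48 and 1.77 against 1.93, 2.11 and 2.03. Both ratios were chosen after the values were seen and were not tested. The summed FPKM of the heavy chains was 1684, 1599.8 and 1594 in conF1-M and 1534, 1529 and 1628 in iAsF1-M livers. Without H2-Q10, the sum was 783, 728 and 735 FPKM in conF1-M livers and 812, 829.9 and 805 FPKM in iAsF1-M livers. The groups overlapped in the whole sum, and without H2-Q10 each iAsF1-M liver was above each conF1-M liver. H2-Q10, itself lower in each iAsF1-M liver, was left out after its values were seen, and neither sum was tested. The largest part of the remaining sum was H2-K1, whose groups overlapped.

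H2-Q7, a Qa-2 chain anchored by lipid in the membrane, was at 8.88, 9.22 and 7.96 FPKM in conF1-M livers and at 10.6, 11.9 and 9.26 FPKM in iAsF1-M livers. Its groups did not overlap, though conF1-M 2 and iAsF1-M 3 were nearly level. The means were 8.69 ± 0.652 and 10.6 ± 1.33 FPKM (SD, n = 3), with a log2 fold change of 0.26 ± 0.11 (SE, limma adjusted p = 0.609). H2-Q6, its neighbour and near copy, was at 4.03, 1.21 and 4.10 FPKM in conF1-M against 4.40, 6.64 and 3.62 FPKM in iAsF1-M livers, with a log2 fold change of 0.58 that came to 0.18 without conF1-M 2, its low library. H2-Q6 and H2-Q7 share reads: of the 50-base windows of their longest coding transcripts, 32.0% and 34.9% also occur in another gene. The other nonclassical chains overlapped between groups. H2-T23, the Qa-1 chain that NK cells read, had means of 78.2 ± 2.67 and 76.8 ± 7.38 FPKM (SD, n = 3), and H2-T22, a chain that some gamma delta T cells recognise, of 37.4 ± 1.88 and 40.0 ± 6.996 FPKM. H2-Q4 was at 13.7 ± 0.252 and 15.2 ± 2.29 FPKM, and H2-Q1 at 2.58 ± 1.01 and 1.86 ± 0.450 FPKM. H2-T22 shares 44.7% of its windows with other genes, chiefly H2-T10. H2-T24, H2-M3, which presents formylated peptides, H2-T10 and H2-Q2 had means under 1 FPKM and were not tested. The first 3 of these lay between 0.42 and 1.48 FPKM in all livers and overlapped between groups. The least abundant, H2-Q2, was at 0.35, 0.38 and 0.30 FPKM in conF1-M against 0.50, 0.40 and 0.22 FPKM in iAsF1-M livers.

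Of the 9 heavy chains tested, 6 were above 0 and 3 below, with a median log2 fold change of 0.11 against -0.07 over all genes tested. With quantile normalization or median-ratio scaling, 7 of 9 were above 0, the median was 0.15 or 0.18, and H2-T23 changed sign.

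Peptides enter the endoplasmic reticulum through the transporter made of Tap1 and Tap2, are trimmed by Erap1 and are fitted to class I with the help of tapasin (Tapbp) and its relative Tapbpl. Tap1 (ENSMUSG00000037321, GRCm38 chr17:34187553-34197225, plus strand) lies head to head with Psmb9 (ENSMUSG00000096727, chr17:34181987-34187764, minus strand), and their RefSeq start sites are 226 bases apart. The window of Tap1 (chr17:34187306-34187605, plus strand) is printed because 275 of its 300 bases also lie in the window of Psmb9, and because these were the members of the loading and immunoproteasome groups whose livers did not overlap. Its capitals mark the CCAAT box, the only match found to the motifs searched.
Tap1: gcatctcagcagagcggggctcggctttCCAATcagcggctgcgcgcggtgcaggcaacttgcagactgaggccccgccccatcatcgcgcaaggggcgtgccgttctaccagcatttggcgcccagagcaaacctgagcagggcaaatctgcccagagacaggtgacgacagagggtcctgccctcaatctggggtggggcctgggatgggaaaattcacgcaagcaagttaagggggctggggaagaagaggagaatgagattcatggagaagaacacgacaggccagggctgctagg

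Tap1 was at 5.34, 5.83 and 4.95 FPKM in conF1-M livers and at 7.20, 6.01 and 6.68 FPKM in iAsF1-M livers. Each iAsF1-M liver was above each conF1-M liver, with iAsF1-M 2 and conF1-M 2 closest. The means were 5.37 ± 0.441 and 6.63 ± 0.597 FPKM (SD, n = 3), and the log2 fold change was 0.26 ± 0.10 (SE, limma adjusted p = 0.593). Tap2, its partner, overlapped between groups at 4.46, 5.85 and 4.83 FPKM against 5.04, 5.56 and 5.97 FPKM. B2m (chromosome 2), the light chain of every class I molecule, was the most abundant member at 2312, 2242 and 2525 FPKM in conF1-M livers and 2610.2, 2295 and 2769.7 FPKM in iAsF1-M livers. These overlapped, with a log2 fold change of 0.11 ± 0.13 (SE, limma adjusted p = 0.787). Erap1 was at 20.6, 22.4 and 17.7 FPKM against 22.1, 20.5 and 23.6 FPKM, also overlapping. Tapbp had means of 16.98 ± 0.323 and 17.9 ± 0.949 FPKM (SD, n = 3) and Tapbpl of 6.07 ± 0.741 and 6.05 ± 0.568 FPKM. The 6 loading genes had a median log2 fold change of 0.11, with 5 above 0, and all 6 above 0 with quantile normalization or median-ratio scaling. Without iAsF1-M 3 the median was 0.06.

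Psmb9, the induced subunit that replaces Psmb6, was at 6, 9.51 and 8.08 FPKM in conF1-M livers and at 12.6, 9.71 and 16.5 FPKM in iAsF1-M livers. The groups did not overlap, but conF1-M 2 and iAsF1-M 2 differed little and iAsF1-M 3 stood highest. The means were 7.86 ± 1.77 and 12.9 ± 3.40 FPKM (SD, n = 3), a ratio of 1.64, with a log2 fold change of 0.64 ± 0.21 (SE, limma adjusted p = 0.584). The exons of Psmb9 and Tap1 overlap by 212 bases on opposite strands, and with a kit that does not keep strand the fragments there cannot be assigned. Psmb8, which replaces Psmb5 and lies between Tap1 and Tap2, was at 9.42, 11.2 and 11.9 FPKM in conF1-M against 13.4, 10.2 and 13.5 FPKM in iAsF1-M livers, with overlapping groups. Psmb10, which replaces Psmb7, had means of 11.9 ± 0.696 and 12.2 ± 2.31 FPKM (SD, n = 3). The subunits of the proteasome activator were the most abundant of the group. Psme1 was at 77.6, 78.8 and 76.7 FPKM in conF1-M livers and 84.3, 72.3 and 86.7 FPKM in iAsF1-M livers, and Psme2 had means of 59.2 ± 0.623 and 57.7 ± 5.36 FPKM (SD, n = 3). Psme2 shares 59.3% of its windows with Psme2b and Gm7928. All 5 genes were highest of the 6 livers in iAsF1-M 3, and 3 of them lowest in iAsF1-M 2.

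The median log2 fold change of the 5 immunoproteasome genes was 0.06, with 4 above 0, and 0.13 with 5 above 0 under either scaling. It was 0.01 without iAsF1-M 3 and 0.14 without iAsF1-M 2. Over heavy chains, loading and immunoproteasome together, 15 of 20 tested genes were above 0 and 5 below, against 30.4% of all genes tested above 0. Under quantile normalization or median-ratio scaling, 18 of 20 were above 0, against 48.5% or 49.1% of all genes. The count at an unadjusted p under 0.05 and higher, 3 of these 20, was 0 when conF1-M 1 was left out, and 1 when conF1-M 3 or iAsF1-M 1 was.

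Each induced catalytic subunit was set against the constitutive subunit it replaces. The ratio of Psmb9 to Psmb6 was 0.0715, 0.126 and 0.1 in conF1-M livers and 0.188, 0.119 and 0.225 in iAsF1-M livers. Here iAsF1-M 2 lay within the range of the controls, and the mean log2 ratio was higher by 0.83 ± 0.36 (SE) in iAsF1-M, with an exact permutation p of 0.2 (two-sided, adjusted 0.5 over 3 ratios). The log2 ratio of Psmb8 to Psmb5 was higher by 0.25 ± 0.25 (exact permutation p = 0.4), and that of Psmb10 to Psmb7 by 0.11 ± 0.17 (exact permutation p = 0.5). With 3 mice against 3, this test cannot give a p below 0.1. Leaving out 1 liver moved the Psmb9 to Psmb6 difference between 0.61 (without conF1-M 1) and 1.09 (without iAsF1-M 2), the Psmb8 to Psmb5 difference between 0.11 (without conF1-M 1) and 0.45 (without iAsF1-M 2), with 0.13 without iAsF1-M 3, and turned that of Psmb10 to Psmb7 to -0.02 without iAsF1-M 3.

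In the constitutive proteasome list, all 17 genes were tested and 0 passed, with 16 below 0 and a median log2 fold change of -0.10, near that of all genes, and with 12 below 0 after quantile normalization and 10 after median-ratio scaling. Psma4 had means of 108.8 ± 5.95 and 94.9 ± 5.44 FPKM (SD, n = 3) and Psma3 of 65.6 ± 3.68 and 58.4 ± 2.72 FPKM, both alpha ring subunits without overlap between groups. These were the 2 of 17 genes that were lower without overlap, as were 11.8% of all genes tested. Of the chaperones that fold class I in the endoplasmic reticulum, 5 of 6 were found and tested and 0 passed. Calnexin (Canx), 1 of these 5 and the only one without overlap, was at 54.0 ± 2.72 and 47.6 ± 3.75 FPKM. Pdia3 was at 129 ± 7.94 and 121 ± 13.3 FPKM with overlap. The class I-like molecules had 6 of 9 tested, all below 0 under each scaling as well, with 0 past the test. Cd1d1, which presents lipids, was at 110.2 ± 7.89 and 96.4 ± 12.0 FPKM, and Fcgrt, the neonatal Fc receptor, at 103 ± 8.45 and 93.3 ± 5.14 FPKM.

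**Figure D2:**
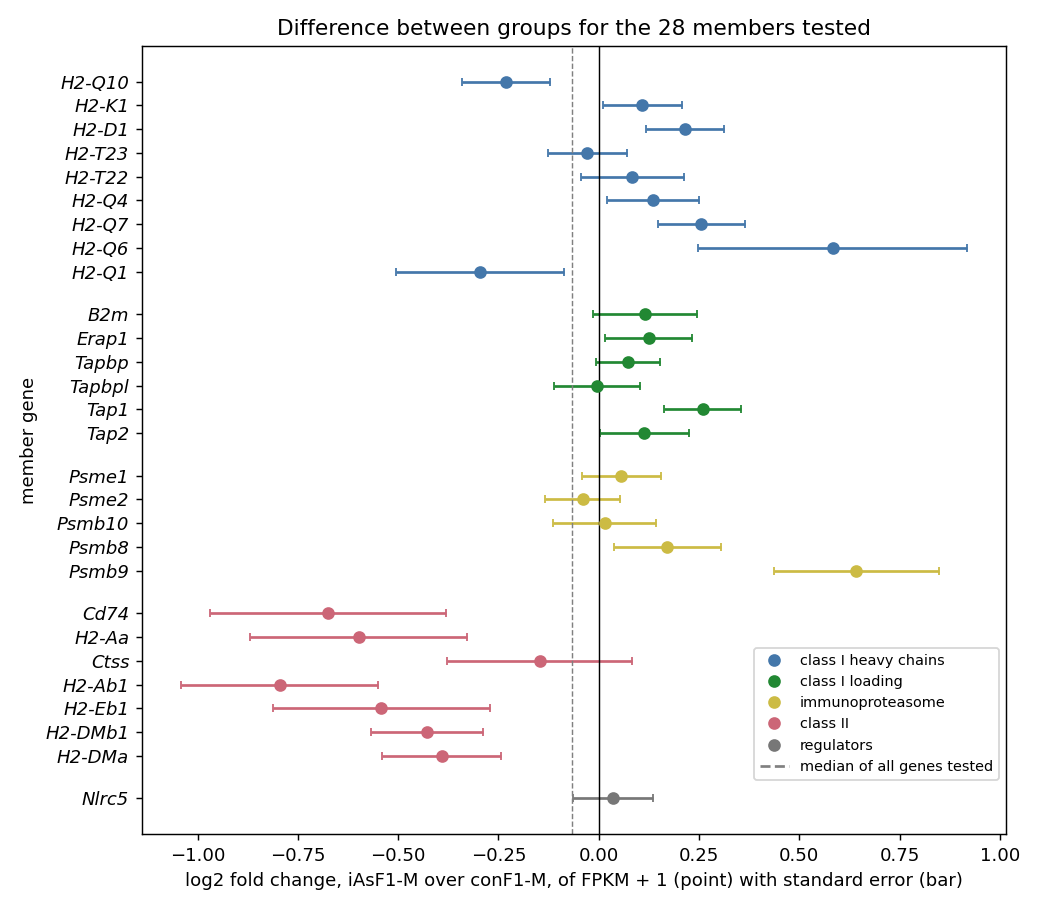
Log2 fold change of FPKM + 1, iAsF1-M over conF1-M, for the 28 members tested, as points with bars of 1 standard error, grouped by role; the dashed line is the median of all genes tested (-0.07). The 7 class II genes lay left of that line, and Psmb9 (0.64) and H2-Q6 (0.58) lay farthest to the right.

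**Figure D3:**
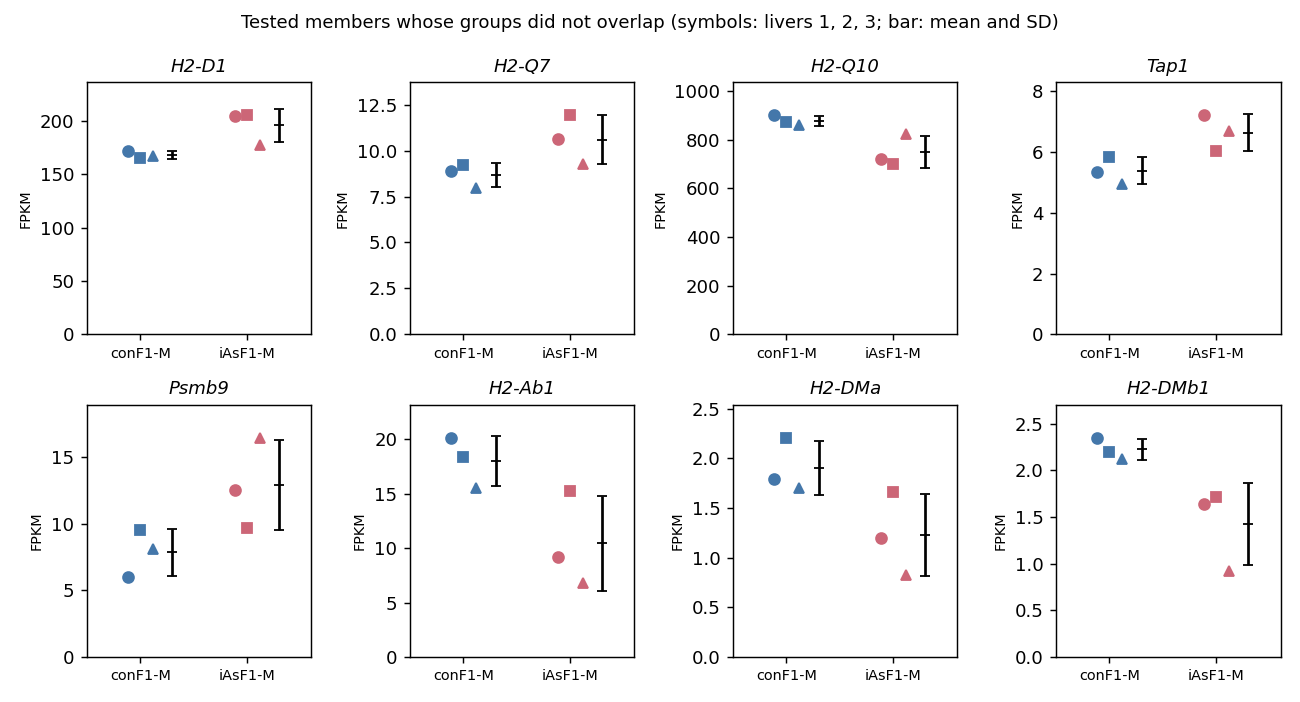
FPKM in each liver (symbols, axes from 0) with the mean and SD of each group, n = 3, for the 8 tested members whose groups did not overlap. H2-D1, H2-Q7, Tap1 and Psmb9 were higher in iAsF1-M, and H2-Q10, H2-Ab1, H2-DMa and H2-DMb1 were lower, with a gap between the groups that was small in most panels.

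The class II molecule H2-A is formed by H2-Aa and H2-Ab1. H2-Aa (ENSMUSG00000036594, GRCm38 chr17:34282744-34287823, minus strand) encodes the alpha chain and H2-Ab1 (ENSMUSG00000073421, chr17:34257689-34269419, plus strand) the beta chain. The RefSeq window of H2-Aa (GRCm38.p6 chr17:34287774-34288073, minus strand) is printed as the class II promoter beside those of class I, with the CCAAT box read on the other strand and a kappa B match, found on both strands at the same place, in capitals. In class II promoters the CCAAT box is bound by NF-Y, next to the RFX complex through which Ciita acts.
H2-Aa: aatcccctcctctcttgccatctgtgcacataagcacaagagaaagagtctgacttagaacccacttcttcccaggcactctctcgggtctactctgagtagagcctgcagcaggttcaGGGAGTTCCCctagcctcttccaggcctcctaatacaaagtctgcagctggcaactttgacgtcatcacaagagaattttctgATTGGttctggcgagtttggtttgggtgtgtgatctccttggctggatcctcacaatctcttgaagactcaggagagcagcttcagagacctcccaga

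H2-Ab1 was at 20.2, 18.4 and 15.6 FPKM in conF1-M livers and at 9.23, 15.3 and 6.81 FPKM in iAsF1-M livers. The groups did not overlap, but conF1-M 3 and iAsF1-M 2 were nearly level. The means were 18.0 ± 2.31 and 10.4 ± 4.36 FPKM (SD, n = 3), with a log2 fold change of -0.80 ± 0.25 (SE, limma adjusted p = 0.579). H2-Aa was at 24.03, 22.7 and 19.2 FPKM in conF1-M livers and at 13.3, 22.6 and 9.20 FPKM in iAsF1-M livers. Here iAsF1-M 2 lay among the controls and the other two iAsF1-M livers below them, and the log2 fold change was -0.60 ± 0.27 (SE, limma adjusted p = 0.616). H2-Eb1, the beta chain of H2-E, which lacks a functional alpha chain partner in C57BL/6 mice, was at 6.98, 6.53 and 6.27 FPKM in conF1-M livers and at 3.58, 7.42 and 2.67 FPKM in iAsF1-M livers. Again iAsF1-M 1 and 3 were below the controls, while iAsF1-M 2 was above them, with a log2 fold change of -0.54 ± 0.27 (SE, limma adjusted p = 0.616).

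Cd74, the invariant chain that fills the class II groove until the endosome, was the most abundant class II gene. It was at 55.8, 54.3 and 50.2 FPKM in conF1-M livers and at 31.8, 54.5 and 20.7 FPKM in iAsF1-M livers, so that again iAsF1-M 2 lay among the controls. The means were 53.4 ± 2.89 and 35.7 ± 17.3 FPKM (SD, n = 3), and the log2 fold change was -0.68 ± 0.29 (SE, limma adjusted p = 0.612). The peptide exchange factor H2-DM, made of H2-DMa and H2-DMb1, was lower in each iAsF1-M liver. H2-DMa was at 1.79, 2.21 and 1.70 FPKM in conF1-M against 1.20, 1.66 and 0.83 FPKM in iAsF1-M livers, with a log2 fold change of -0.39 ± 0.15 (SE, limma adjusted p = 0.593). H2-DMb1 was at 2.35, 2.20 and 2.12 FPKM in conF1-M against 1.64, 1.71 and 0.92 FPKM in iAsF1-M livers, with a log2 fold change of -0.43 ± 0.14 (SE, limma adjusted p = 0.584). For H2-DMa, conF1-M 3 and iAsF1-M 2 were nearly level. Both genes were near the minimum for testing. The exons of H2-DMa overlap those of Brd2 by 360 bases on the other strand, and H2-DMb1 shares 27.2% of its windows with H2-DMb2. Ctss, the protease that cuts the invariant chain, overlapped between groups at 19.9, 17.9 and 15.8 FPKM against 18.2, 21.2 and 10.4 FPKM.

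All 7 class II genes tested were below 0, against 69.6% of all genes tested. They were also below 0 under quantile normalization and median-ratio scaling, where 51.5% and 50.9% of all genes were. Their median log2 fold change was -0.54, against -0.07 over all genes tested. The livers of iAsF1-M were unlike each other: iAsF1-M 3 was the lowest of the 6 livers in all 7 genes, iAsF1-M 1 was below each control in 6, and iAsF1-M 2 was below each control in 3 and above each in 2. Their summed FPKM was 131, 124 and 111 in conF1-M livers and 78.9, 124 and 51.6 in iAsF1-M livers. The median was -0.89 without iAsF1-M 2 and -0.29 without iAsF1-M 3, where 6 of 7 were below 0. The count at an unadjusted p under 0.05, 3 of 7, was 6 without iAsF1-M 2, 5 with array weights, 1 of the 5 genes left at a minimum of 5 FPKM, 2 without conF1-M 2, iAsF1-M 1 or iAsF1-M 3 or after quantile normalization, and 1 without conF1-M 1.

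In bulk liver, fewer cells of a type and less RNA per cell cannot be told apart, so markers of the cells that make class II were read beside these genes. All 10 Kupffer cell markers were found and tested, 0 passed, and their summed FPKM was 148 to 168 in conF1-M livers and 163, 231 and 91.3 in iAsF1-M 1, 2 and 3. Liver iAsF1-M 3 was the lowest of the 6 in 10 of 10 of these markers, and iAsF1-M 2 the highest in 7, the same livers that were lowest and highest among iAsF1-M in class II. C1qa, a complement gene of macrophages, was at 29.5, 25.8 and 26.2 FPKM in conF1-M livers and 27.3, 41.9 and 19.0 FPKM in iAsF1-M livers, with overlapping groups. Clec4f, a lectin of Kupffer cells, was at 21.4 ± 2.27 and 15.4 ± 3.14 FPKM (SD, n = 3) without overlap. Marco, a scavenger receptor, was at 10.2 and 28.4 FPKM in iAsF1-M 1 and 2 and between 0.82 and 1.6 FPKM in the other livers. Of the 10 markers, 7 were below 0, with a median log2 fold change of -0.13. Without iAsF1-M 3, 8 were above 0, the median was 0.22 and 1 marker, Marco, passed in limma. The part of the Kupffer cell content in the class II values was not tested.

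Within a library, the ratio of H2-Aa to C1qa was 0.814, 0.877 and 0.732 in conF1-M livers and 0.487, 0.539 and 0.485 in iAsF1-M livers. The groups did not overlap and the iAsF1-M livers, which differed widely in H2-Aa, came within a narrow band. The ratio of Cd74 to C1qa was 1.89, 2.10 and 1.92 in conF1-M and 1.17, 1.30 and 1.09 in iAsF1-M livers. C1qa had a log2 fold change of 0.04, while 7 of the 10 Kupffer cell markers were below 0. With Clec4f or Csf1r in place of C1qa, the groups overlapped in both ratios. They also overlapped with Timd4 for H2-Aa and with Vsig4 for Cd74. The summed class II FPKM over the summed Kupffer markers was 0.779, 0.778 and 0.749 in conF1-M livers and 0.484, 0.537 and 0.565 in iAsF1-M livers. Over the 10 markers taken singly, the ratio did not overlap between groups and was lower in iAsF1-M with 9 for H2-Ab1, with 8 for H2-DMa and H2-DMb1 and with 7 for H2-Aa, H2-Eb1 and Cd74, while Ctss, which macrophages also express widely, had a ratio without overlap that was lower with 1 marker and higher with another. The 10 markers were read in the same livers and moved together, with iAsF1-M 3 lowest in all 10 and iAsF1-M 2 highest in 7. These counts of markers are therefore not counts of independent comparisons. H2-Ab1, H2-DMa and H2-DMb1 were also lower without overlap before division by any marker. Against Clec4f, no class II gene had a ratio without overlap in the lower direction. These ratios were chosen after the values were seen and were not tested.

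**Figure D4:**
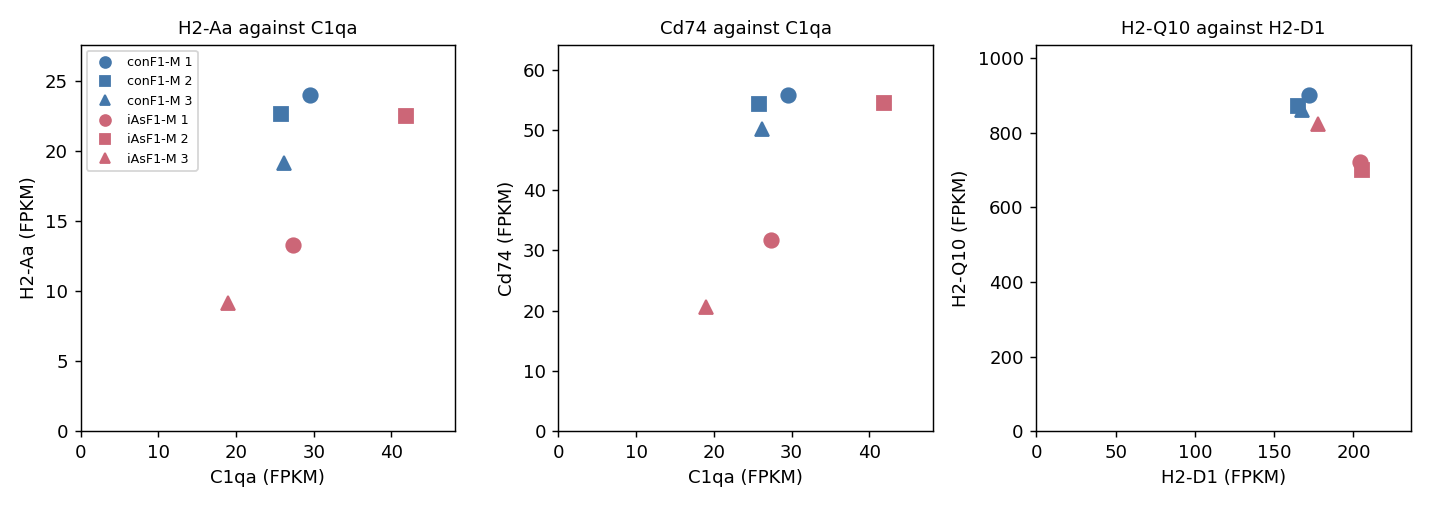
FPKM of H2-Aa and of Cd74 against C1qa, and of H2-Q10 against H2-D1, with 1 symbol per liver and axes from 0. At a like C1qa level, iAsF1-M 1 lay below the controls in H2-Aa and Cd74, while iAsF1-M 2 had a C1qa of 41.9 FPKM with class II levels near those of the controls. C1qa had a log2 fold change of 0.04, and 7 of the 10 Kupffer cell markers were below 0.

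Markers of dendritic cells and B cells, which carry class II, were near the floor of the data. All 7 dendritic cell markers were found, with sums of 1.99 to 2.29 FPKM in conF1-M against 1.82 to 2.24 FPKM in iAsF1-M livers, and none was at 0 in any liver. Their means over the 6 livers were under 1 FPKM and none was tested. Zbtb46, a transcription factor of dendritic cells and the most abundant of these, was lower in each iAsF1-M liver, at 1.03, 1.09 and 1.13 FPKM against 0.65, 0.68 and 0.99 FPKM, while the integrin Itgax was higher in each, at 0.12, 0.1 and 0.1 FPKM against 0.21, 0.23 and 0.13 FPKM. Of 7 B cell markers, 6 were found, with sums of 2.95 to 4.37 FPKM in conF1-M against 2.07 to 2.65 FPKM in iAsF1-M livers. Cd79a, part of the B cell receptor, was at 1.75, 1.08 and 1.24 FPKM in conF1-M against 0.72, 0.73 and 0.76 FPKM in iAsF1-M livers, and Cd22 was also lower without overlap. The part of B cells in the class II values was not tested. Sums of T and NK cell markers were 2.04 to 2.57 FPKM and 2.06 to 3.24 FPKM, and those of monocyte and neutrophil markers 26.5 to 32.4 FPKM and 17.5 to 44.0 FPKM. Sinusoidal endothelial markers had sums of 66.3 to 85.7 FPKM in conF1-M against 49.7 to 58.6 FPKM in iAsF1-M livers, and 5 of 8, Dnase1l3 and Kdr among them, were lower without overlap, against 11.8% of all genes tested. None of the 8 passed in limma, where the lowest adjusted p was 0.365, and Lyve1 had the higher mean in iAsF1-M, with a log2 fold change of 0.24. Hepatocyte markers were high in each liver, as the label says, with sums of 43373 to 59892 FPKM in iAsF1-M and overlapping sums in conF1-M. The part of these cells in the class I and class II values was not tested.

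Of the remaining class II and peptide exchange genes, 11 of 13 were found and 3 tested, with 2 below 0, 1 above and 0 past the test. H2-Oa and H2-Ob, which hold H2-DM back and are typical of B cells, were at 0.20 to 0.32 FPKM and 0.24 to 0.40 FPKM and overlapped. The endosomal proteases overlapped as well. Ctsb had means of 282 ± 35.1 and 253 ± 26.9 FPKM (SD, n = 3), Lgmn of 20.9 ± 1.67 and 19.5 ± 5.33 FPKM, and Ctsl, the gene above 0, of 259.5 ± 11.9 and 290.1 ± 66.4 FPKM.

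Ciita, the master regulator of class II, was the least abundant member. It was at 0.18, 0.16 and 0.14 FPKM in conF1-M livers and at 0.08, 0.11 and 0.07 FPKM in iAsF1-M livers, so its groups did not overlap, but its mean was under the minimum and it was not tested. At the depth estimated from the steps between low values, these correspond to roughly 9 to 24 fragments per library, and its exons overlap those of Dexi on the other strand. With Ciita, 5 of the 33 members were lower without overlap, as were 11.8% of all genes tested. Nlrc5, the regulator of class I, was at 2.57, 2.54 and 2.42 FPKM in conF1-M against 2.97, 2.63 and 2.23 FPKM in iAsF1-M livers, with overlapping groups and a log2 fold change of 0.04 ± 0.10 (SE, limma adjusted p = 0.914).

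All 7 genes for factors that bind the class I and class II promoters (RFX, NF-Y and CREB) were tested, with 5 below 0, 4 under either scaling, and 0 past the test. Nfyb, an NF-Y subunit, was at 8.11 ± 1.07 and 6.33 ± 0.670 FPKM (SD, n = 3) without overlap, and Rfxap overlapped at 3.88 ± 0.374 and 3.31 ± 0.641 FPKM. Of 12 genes of interferon gamma signalling, 10 were tested and 0 passed, with 7 below 0, and 4 under either scaling. Ifng itself was between 0 and 0.07 FPKM. Its receptor chain Ifngr1 was at 6.20, 6.37 and 6.16 FPKM in conF1-M against 4.64, 5.55 and 4.94 FPKM in iAsF1-M livers, and Stat2 at 8.61 ± 0.586 and 6.79 ± 0.741 FPKM (SD, n = 3), both without overlap. Lower without overlap were 1 of the 7 promoter factors and 2 of the 10 interferon gamma genes tested, against 11.8% of all genes tested. Irf1, an interferon-induced transcription factor, was at 8.25 ± 0.726 and 6.51 ± 1.74 FPKM (SD, n = 3), with overlapping groups.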

How the data were processed

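Liver RNA of 3 conF1-M and 3 iAsF1-M mice was analysed, with groups taken from the sample labels. The authors prepared TruSeq libraries, sequenced paired ends on a HiSeq instrument, removed reads with adapters, with over 20% low-score or over 5% unknown bases, and aligned with HISAT2 to GRCm38 (mm10 in the submitters' processing notes). The authors deposited FPKM per gene, rounded to 2 decimals; the program and annotation behind them are not given in the sources used here. FPKM hold no counts, so no count test was run.

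Of 16743 identifiers, 16706 were paired with a symbol through GENCODE M21 on GRCm38, used for names, positions, shared windows and overlaps, and 16 on 2 lines were left out of the tests. Promoters came from RefSeq (GRCm38.p6). The 9695 genes whose mean reached 1 FPKM were fitted by limma 3.58.1 (lmFit, then eBayes with a trend, R 4.3.3) as log2(FPKM + 1), two-sided, without a block, and p-values were adjusted over all genes tested by Benjamini and Hochberg with a threshold of 0.05. The fit was tested on simulated data, and subunit ratios were compared by an exact permutation test over 20 assignments in Python 3.11.15. Fragments per library, estimated from the steps between low FPKM, were 20850000 to 22200000; at best 56.5 to 63.5% of low values came within 0.15 of a whole fragment, so counts were not recovered and the depth is approximate.

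The members and lists were chosen with earlier results of these data known. The members and 114 of 118 further listed genes found in the files are described, each list by its counts, and some listed genes are not reported by name here. All members are named. Values per mouse are given where groups did not overlap, for the 2 smallest p-values of a member list and for its most and least abundant gene, and other lists by the 2 to 4 genes with the smallest p. C1qa, Lyve1 and some other listed genes were named outside this rule. Alternatives were pseudocounts of 0.1 and 0.5, no minimum or a minimum FPKM of 0.1 or 5, quantile normalization, median-ratio scaling, other variance settings, array weights, a replicate block, a threshold of 0.1 and leaving out each liver. Replicate numbers did not pair the livers.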

Additional observations from a re-analysis of the deposited data

How the results depend on the processing

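No member passed under any of the 17 alternative fits or at an adjusted p under 0.1, and 21 of the 28 tested had no change of sign. The number of genes called, 6, was 3 without a filter on low FPKM and from 3 to 73 when 1 liver was left out (73 without iAsF1-M 3, whose cause was not tested). With a replicate block it was 5, with 0 members called, the same log2 fold changes, and 6 class II genes at an unadjusted p under 0.05 against 3. Livers with the same number correlated at 0.167, -0.10 and -0.02 in their deviations from the group means, so the numbers were not taken as pairs. The class I heavy chain median, 0.11, was 0.0762 without a filter and 0.0762 with a minimum of 0.1 FPKM, where 4 scarce genes enter, 0.15 with quantile normalization, 0.18 with median-ratio scaling, and 0.0935 to 0.149 when 1 liver was left out.

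With quantile normalization and median-ratio scaling respectively, H2-T23 came to 0.0469 and 0.0456, Tapbpl to 0.0559 and 0.0611, and Psme2 to 0.0432 and 0.0336, since both scalings lift the centre of all genes. Psmb10 came to -0.0454 with array weights. When 1 liver was left out, the ranges were -0.0478 to 0.187 for H2-T22, -0.0978 to 0.0388 for H2-T23, -0.0619 to 0.0797 for Tapbpl, -0.124 to 0.104 for Psmb10, -0.113 to 0.00947 for Psme2, -0.341 to 0.136 for Ctss and -0.0355 to 0.113 for Nlrc5, and -0.0169 to 0.223 for the difference in log2 ratio of Psmb10 to Psmb7. The causes of these shifts were not tested. With 3 livers per group, the father, the litter and the liver cannot be told apart, and genes under a few FPKM rest on few fragments.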
